A study of Mus musculus with 3 samples.

Results

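Conventional dendritic cells that had not matured were examined in immune cells from mouse brains bearing E0771 mammary carcinoma metastases. They were 161 of 12908 deposited cell barcodes, and 161 of the 5577 barcodes that could be assigned to a single hashtag sample. The cells were chosen on measured transcript counts (unique molecular identifiers, UMIs), so the values of the choosing genes are given as a description and were not tested. A barcode needed at least 500 genes, at most 15% mitochondrial UMIs, at most 40000 gene UMIs and a top hashtag holding at least 70% of its hashtag counts. It also needed at least 5 UMIs of the MHC class II gene H2-Aa, at least 2 detected genes out of Flt3, Zbtb46, Xcr1, Clec9a, Cd209a and Itgae, fewer than 3 detected out of the maturation genes Ccr7, Fscn1, Ccl22, Cacnb3 and Socs2, and no Cd3e. Among the 161 cells, 81 carried Xcr1 or Clec9a without Cd209a and are called Xcr1 or Clec9a cells, and 45 carried Cd209a without Xcr1 or Clec9a and are called Cd209a cells. A further 20 cells carried Clec9a together with Cd209a, and 15 carried none of these 3 genes.

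The mice were C57Bl/6 females aged 2 to 3 months, given E0771 mammary carcinoma cells through the carotid artery. Some of them received antibodies against VISTA and PD-L1 every other day from day 3 after the injection, and others did not. Leukocytes were enriched on Percoll, each of 8 samples was stained with 35 barcoded antibodies and its own hashtag antibody, and all were pooled for 1 droplet capture with gene, antibody and hashtag libraries. The labels do not say which hashtags belong to treated mice, or which hashtag samples came from separate animals. All groups below are therefore cell classes compared within hashtag samples, each group mixes treated and untreated brains to an unknown degree, and a p-value measures only the spread between hashtag samples.

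Conventional dendritic cells capture antigen, load it on MHC molecules and present it to T cells. The type 1 lineage, which depends on IRF8 and BATF3 and carries XCR1, CLEC9A and CD103, is known for cross-presenting antigen to CD8 T cells. The type 2 lineage, which carries CD172a (SIRP alpha) and, in many tissues, CD11b and CD209a, is known for presenting to CD4 T cells. On maturation either type gains CCR7 and moves to draining lymph nodes. In the brain these cells are found mainly in the meninges, choroid plexus and perivascular spaces, and they enter the tissue in tumours.

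Antibody tags were counted apart from the transcripts that chose the cells. The tags that separated the classes below carry these 15-base barcodes in the deposited antibody list, written 5′ to 3′. They are shown because CD103, XCR1 and CD24 mark the type 1 lineage, CD117 is the KIT receptor of dendritic precursors, and I-A-I-E is MHC class II protein.
CD103: ttcattagcccgctg
XCR1: tccattacccacgtt
CD24: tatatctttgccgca
CD117-c-kit: tgcatgtcatcggtg
I-A-I-E: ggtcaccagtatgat

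The genes that chose the cells were unevenly detected. Flt3, the growth factor receptor of dendritic precursors, had a UMI in 123 of the 161 cells. Clec9a, a receptor for dead cells, was detected in 89, Cd209a, a C-type lectin, in 65 and Zbtb46, a transcription factor of conventional dendritic cells, in 58. Xcr1, a chemokine receptor, was detected in 52 and Itgae, which encodes CD103, in 41. Among the Xcr1 or Clec9a cells, 40 had both genes, 12 had Xcr1 only and 29 had Clec9a only. Of all members, 0 had both Xcr1 and Cd209a. In RefSeq's GRCm38.p6 annotation, of the same build as mm10, these protein-coding genes span chr5:147330741-147400489 (Flt3), chr6:129408862-129424764 (Clec9a), chr8:3743395-3748984 (Cd209a), chr2:181371009-181493262 (Zbtb46), chr9:123852315-123862029 (Xcr1) and chr11:73090505-73147449 (Itgae).

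The threshold of 2 dendritic genes lay inside a gradient of type 1 markers. Exactly 2 of the 6 genes were found in 94 members and 3 or more in 67, while 247 barcodes that met every other condition had only 1 and stayed outside. CPM (each gene's UMIs scaled to 1000000 gene UMIs) of Irf8, the lineage factor of type 1 cells, were 387 in the barcodes with 1 gene, 599 with 2 and 1176 with 3 or more. The CD103 tag averaged 2.17, 7.26 and 31 counts per cell in the same order. Cells just inside the threshold were thus nearer in these values to those just outside it than to the cells with 3 or more genes. Both values mark type 1 cells and are tied to the choosing genes. Itgae was detected in 9 of 247, 7 of 94 and 34 of 67 cells in the same order. The values therefore do not tell how far type 2 cells differ across the threshold. At least 3 of 7 macrophage genes (such as Ms4a7, C1qa and Mertk) were held by 49.8% of barcodes with only 1 gene, 33.0% of members with 2 genes and 38.8% of members with 3 or more. On the other thresholds, 5 members had 5 to 9 H2-Aa UMIs and 8 barcodes had 1 to 4. There were 6 members with 2 maturation genes, and 4 barcodes with 3 maturation genes and at least 2 dendritic genes fell outside.

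Members had a median of 13405 gene UMIs, 3041 genes and 3761 antibody counts. Macrophage transcripts were present in part of them: 57 of 161 (35.4%) held at least 3 of the 7 macrophage genes, with a median of 21458 UMIs against 11450.5 in the other cells. All 10 genes of a wider macrophage marker list had UMIs in the members, and the list summed to 3439 to 6481 CPM over the 6 hashtag samples with at least 11 members, against 12496 to 25190 CPM over 7 samples in macrophages. Monocyte markers summed to 3611 to 5604 CPM in the members, within the 2033 to 6187 CPM over 7 samples in macrophages. They summed to 3971 CPM over the members with fewer than 3 macrophage genes, so this list did not set members apart from macrophages. Over all members, T cell markers summed to 8.76 CPM, B cell markers to 27.0, carcinoma keratin and adhesion markers to 40.8, microglia markers to 455 and NK cell markers to 216. The T cell sum was in part set beforehand, since cells with Cd3e were left out. Endothelial markers summed to 152 CPM (29.3 to 438 over samples), with 264 CPM in Cd209a cells (0 to 817) and 39.7 in Xcr1 or Clec9a cells (18.0 to 80.3). The part of these transcripts in the results below was not tested. Doublets across hashtag samples were removed with the 827 of 6404 barcodes lacking a dominant hashtag. Doublets within a sample remain, and free RNA could not be measured because only called cells were read. Their part in the macrophage transcripts was not tested.

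Plasmacytoid dendritic cell genes were found in some members. At least 2 of Siglech, Ly6d, Ccr9, Klk1 and Cox6a2 were detected in 15 of 161 members (9.32%). They were found in 0 of 52 Xcr1-positive cells, which by the floor of 3 counts allows up to 5.77% (exact upper bound 6.85%), in 7 of 29 Clec9a-only cells (24.1%) and in 5 of 20 cells with both Clec9a and Cd209a (25%). A further 2 were among the 45 Cd209a cells (4.44%), and 1 among the cells with none of the 3 genes. The corresponding share in macrophages was 1.56% (12 of 769) at a median of 12154 UMIs, below the 16108 UMIs of the Clec9a-only cells. Siglech is also on the microglia marker list, which summed to 839 CPM in macrophages, so this share is not a pure background. The full 7-gene plasmacytoid list summed to 880.3 CPM in Xcr1-positive cells, 2345 in Clec9a-only cells, 2994 in cells with both markers and 1349.6 in macrophages. Tag counts per cell differed in the same order: B220, which plasmacytoid cells carry, averaged 3.42 in Xcr1-positive, 8.45 in Clec9a-only and 8.8 in double-marker cells. The B220 medians over cells were closer, at 3, 4 and 5, with 3 in macrophages. Siglec-H, the protein of Siglech, averaged 3.15, 5.62 and 7.4, with 5.43 in macrophages. The CD103 tag ran the other way at 36.5, 6.24 and 1.85, as did CD24 at 869, 309 and 225. The Xcr1-positive cells had the tags of the type 1 lineage, and some of the Clec9a-only and double-marker cells had plasmacytoid genes. The 15 cells with none of the 3 genes averaged 38.9 CD103 tags, with a median of 7. They could enter only with 2 of Flt3, Zbtb46 and Itgae, and 9 of the 15 had Itgae, the gene of CD103. Results on Xcr1 or Clec9a cells are accordingly given also with Xcr1-positive cells alone where that ended a call.

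Members made up 2.89% of assigned barcodes (161 of 5577, exact 95% Clopper-Pearson interval 2.46 to 3.36%, covering counting error only). Over the 8 hashtag samples the share ran from 0 to 3.88% with a median of 2.69%. The highest share was 51 of 1315 in sample 8, the lowest nonzero shares were 1 of 137 in sample 4 and 11 of 790 in sample 6, and sample 1 had 0 of 38, which by the floor of 3 counts allows a share of up to 7.89% (exact upper bound 9.25%). The intervals of the samples overlapped except that sample 6 (0.697 to 2.48%) lay below sample 8 (2.90 to 5.07%). Xcr1 or Clec9a cells were 64.3% of the 126 typed cells (81 cells, interval 55.3 to 72.6%). In the 4 samples with at least 10 typed cells the share was 54.5% in sample 3, 69.2% in sample 5, 70% in sample 7 and 61.5% in sample 8. The 4 intervals overlapped. The level of this share is set by the choosing genes: it was 90.7% over all samples when 3 dendritic genes were required, and 47.8% (11 of 23) in sample 8 without the cells holding at least 3 macrophage genes.

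**Figure D1:**
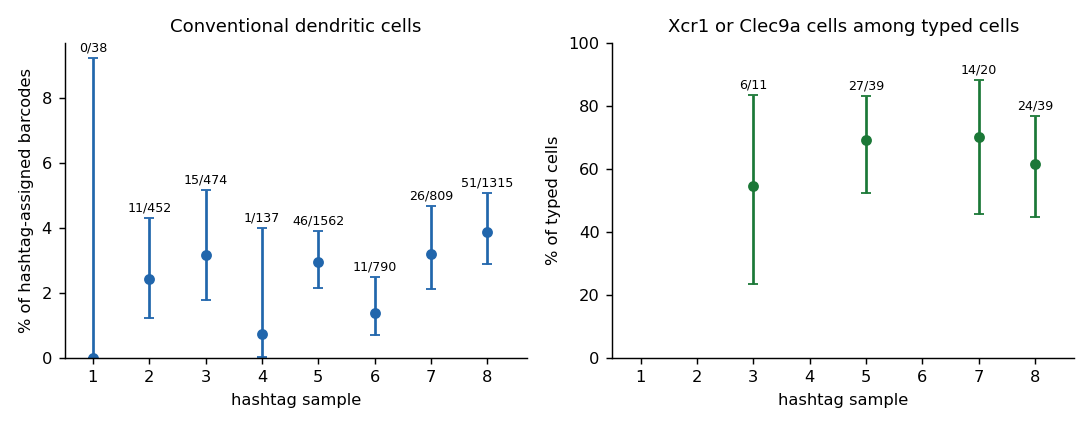
Share of conventional dendritic cells among assigned barcodes (left, percent) and of Xcr1 or Clec9a cells among typed cells (right, percent) in each hashtag sample, with exact 95% Clopper-Pearson intervals and the counts printed beside them. Shares on the left run from 0 to 3.88%, and those on the right from 54.5 to 70%.

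The first comparison asked how the 2 types differed beyond the genes that named them. With at least 10 cells of each type required, samples 5 and 8 qualified, and 28 of 3883 genes tested (0.721%) were higher in Xcr1 or Clec9a cells and 38 (0.979%) lower (edgeR quasi-likelihood test with hashtag sample as a block, Benjamini-Hochberg adjusted p under 0.05, choosing genes not counted). With a minimum of 3 cells, added after cell numbers were seen, samples 2, 3, 5, 6, 7 and 8 qualified. There 60 of 1561 genes (3.84%) were higher and 75 (4.8%) lower, and the count fell to 65 without sample 5 and to 67 without sample 8. Of the 66 genes called in samples 5 and 8, 43 (65.2%) were also among the 135 called in 6 samples (31.9% of those), all in the same direction. The values that follow come from the 6 samples unless samples 5 and 8 are named, and log2 differences are Xcr1 or Clec9a cells minus Cd209a cells.

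Genes of the type 1 program were higher in Xcr1 or Clec9a cells: 8 of 8 tested members of a 20-gene list, with a median log2 difference of 2.17 beside 0.00 over all genes tested. Irf8 stood at 728 to 1528 (median 1300.4) CPM in Xcr1 or Clec9a cells and 58.6 to 504 (median 184) in Cd209a cells (log2 difference 2.46, SE 0.41, adjusted p = 0.00303). Id2, a repressor of E proteins needed by type 1 cells, stood at 674 to 933 (median 776) and 104 to 212 (median 118) CPM (log2 difference 2.70, SE 0.20, adjusted p = 1.5e-05). Irf8 (chr8:120736358-120756694) and Id2 levels did not overlap between the types over the 6 samples. Naaa, a lysosomal amidase, stood at 449.5 to 796 (median 580.4) and 39.1 to 180.5 (median 166) CPM (log2 difference 2.10, SE 0.23, adjusted p = 0.000254). Outside the list, Cst3, the protease inhibitor cystatin C (chr2:148871722-148875512), stood at 13923 to 20892 (median 16109.8) and 2344 to 4349 (median 2946) CPM (log2 difference 2.39, SE 0.10, adjusted p = 7.32e-08). Cst3 had the smallest adjusted p of the 1561 genes in this comparison. Wdfy4, which cross-presentation requires, was at 193 to 309 (median 234) and 19.8 to 212 (median 32.4) CPM (log2 difference 2.61, SE 0.38, adjusted p = 0.00186), with the Cd209a cells of sample 6 inside the other type's range. The remaining called members of the list were Cd24a (log2 difference 1.83), the thioesterase Ppt1 (2.23), the interferon-inducible Ifi205 (1.99, not called without sample 5 or without sample 8) and Rab7b (1.15). Batf3, the partner of Irf8, was too low to test in 6 samples, at 80.3 to 269.7 (median 161) and 0 to 60 (median 18.9) CPM. In samples 5 and 8 it was called, with a log2 difference of 3.51 (SE 0.399, adjusted p = 0.0102). Tlr3, the receptor for double-stranded RNA, was not called there (log2 difference 3.34, adjusted p = 0.104).

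**Figure D2:**
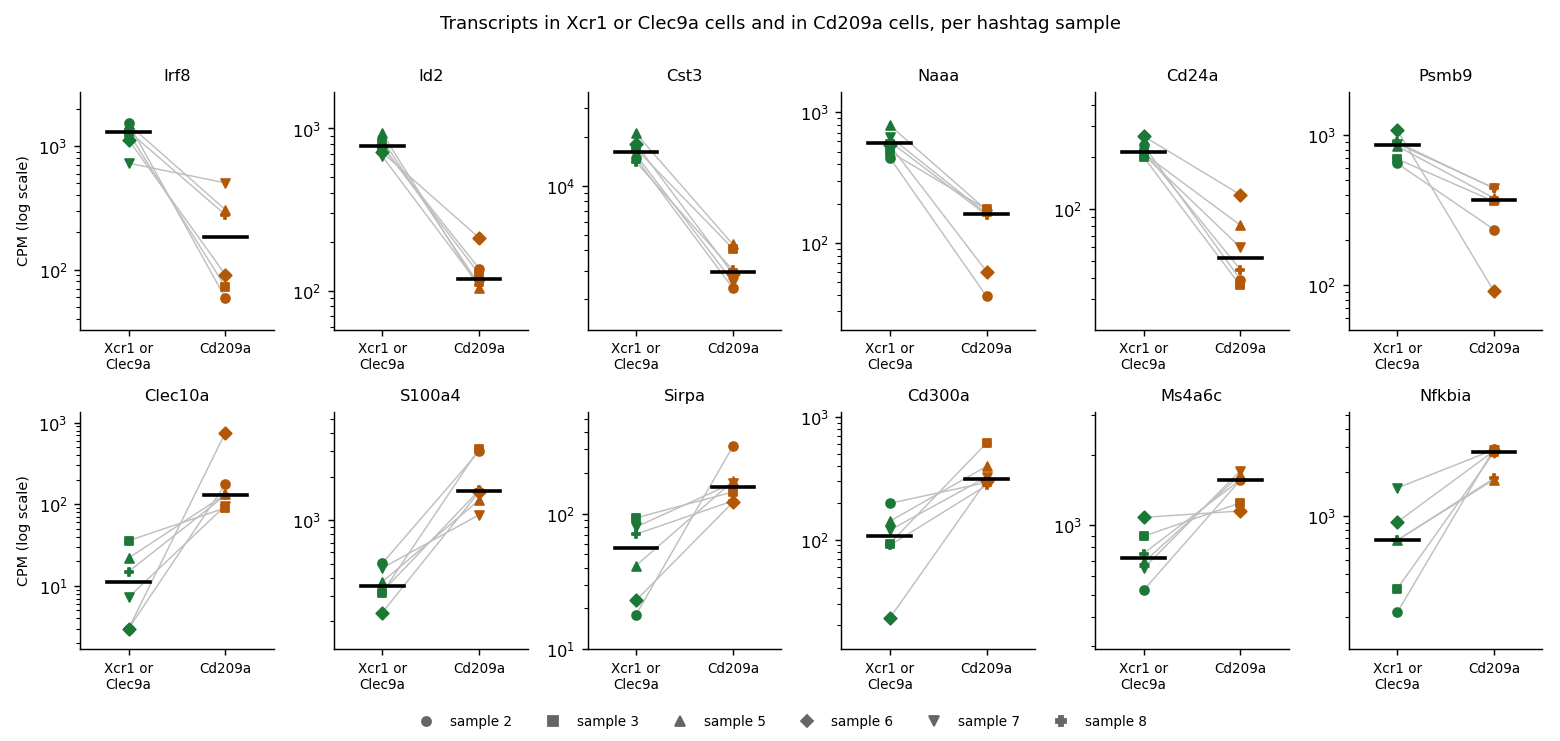
CPM of 12 genes in Xcr1 or Clec9a cells and Cd209a cells of 6 hashtag samples, on log axes with values under 3 drawn at 3. Each marker is a hashtag sample, grey lines join the same sample and black bars are medians; Irf8, Id2, Cst3, Naaa, Cd24a and Psmb9 lie higher in Xcr1 or Clec9a cells and Clec10a, S100a4, Sirpa, Cd300a, Ms4a6c and Nfkbia lower.

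Genes of the type 2 program were lower in Xcr1 or Clec9a cells in 8 of 14 tested members and higher in 0, with a median log2 difference of -1.04. Clec10a, a galactose-binding lectin of type 2 cells, stood at 0 to 35.7 (median 11.1) CPM in Xcr1 or Clec9a cells and 90.2 to 756 (median 131) in Cd209a cells (log2 difference -3.27, SE 0.47, adjusted p = 0.00156). Cd300a, an inhibitory receptor, stood at 22.9 to 198 (median 106) and 278 to 614 (median 313) CPM (log2 difference -1.72). Sirpa, which encodes CD172a, stood at 18 to 92.9 (median 56) and 121 to 313 (median 156) CPM (log2 difference -1.44, adjusted p = 0.0145). Levels of these 3 genes did not overlap between the types. Tmem176a, Tmem176b, Itgam (CD11b), the monocyte chemokine receptor Ccr2 and Ms4a6c were the other called members, with log2 differences from -2.23 to -0.99. Outside the list, the calcium-binding S100a4 was at 229 to 503 (median 348) and 1091 to 3140.4 (median 1592) CPM (log2 difference -2.30, SE 0.23, adjusted p = 0.000163), and the lectin receptor gene Klrd1 (CD94) had a log2 difference of -2.11.

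Cd7, an immunoglobulin-family membrane protein better known on T and NK cells, was detected in more Cd209a cells than Xcr1 or Clec9a cells. It stood at 0 to 35.7 (median 9.29) CPM in Xcr1 or Clec9a cells and 30.2 to 586 (median 299) in Cd209a cells of the 6 samples, where the filter on low counts left it untested. In samples 5 and 8 the log2 difference was -5.00 (SE 0.374, adjusted p = 0.00267). After every cell was thinned to 5000 UMIs, 51.1% of 45 Cd209a cells had a Cd7 UMI, against 4.94% of 81 Xcr1 or Clec9a cells, 5.13% of 117 mature dendritic cells and 0.548% of 730 macrophages. The unthinned shares were 68.9%, 9.88%, 6.56% and 1.04%. T cell markers summed to 1.67 CPM in Cd209a cells, with only 1 of 6 T cell genes detected, and NK markers to 217 CPM beside 223 in Xcr1 or Clec9a cells. The T cell list includes Cd3e, whose absence the rule required, so its low sum was in part set by the choice of cells.

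Antigen presentation differed between the types in class I processing. Of 14 tested class I genes, 3 were higher in Xcr1 or Clec9a cells and 0 lower: the immunoproteasome subunits Psmb9 and Psmb8 and the chaperone Pdia3. Psmb9 stood at 647 to 1078 (median 861) and 90.7 to 444 (median 370.3) CPM (log2 difference 1.30, SE 0.25, adjusted p = 0.00639), and Psmb8 and Pdia3 had log2 differences of 0.73 and 0.65. Of 9 class II genes, 0 were called in either direction in 6 samples by edgeR, and 1 had an unadjusted p under 0.05. The class II chain H2-Ab1 stood at 7714 to 8449.9 (median 8120.5) and 4597 to 11731 (median 6829) CPM (log2 difference 0.22, SE 0.137, adjusted p = 0.364). In samples 5 and 8 the class II protease Ctss was called lower in Xcr1 or Clec9a cells (log2 difference -0.74), and in 6 samples it was not (-0.47, adjusted p = 0.138).

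Inflammatory genes were called in few members of each list. Il1b stood at 998 to 3502 (median 1403) and 2721 to 5956 (median 3677) CPM (log2 difference -1.24, SE 0.245, adjusted p = 0.00847), and the adjusted p became 0.0705 without the cells holding at least 3 macrophage genes. The NF-kappa-B inhibitor Nfkbia stood at 216 to 1557 (median 679.6) and 1783 to 2910.4 (median 2778) CPM (log2 difference -1.88). The chemokine Ccl9 was the only 1 of 10 tested chemokines called, at 0 to 127 (median 49.4) and 137 to 343 (median 229.7) CPM (log2 difference -1.94), and Tnfsf9 (4-1BB ligand) the only 1 of 4 costimulation and checkpoint genes (-1.93). Ccl9 and Nfkbia did not overlap between the types. Cxcl9 and Cxcl10, the ligands of CXCR3 on T cells, were not called, with log2 differences of 1.13 (adjusted p = 0.157) and -0.63 (adjusted p = 0.702). In samples 5 and 8 alone Cxcl10 was called lower (-1.86, adjusted p = 0.00267). Cxcl2 was called higher there (1.26, adjusted p = 0.0228), but not by DESeq2 or in 6 samples (0.65, adjusted p = 0.392). Oasl2 was the only 1 of 15 interferon-stimulated genes called, and 0 of 10 lipid and lysosome genes were called while 3 had an unadjusted p under 0.05.

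Of the 15-gene cell cycle list, 0 members were high enough to test in 6 samples, and in samples 5 and 8 Top2a was called higher among 5 tested, 4 of which had an unadjusted p under 0.05 by edgeR. Outside the list, 2 genes named by the size of their difference are expressed in dividing cells. Stmn1, a microtubule regulator of dividing cells, stood at 148 to 719 (median 167) CPM against 0 to 36 (median 12.2) (log2 difference 3.67, SE 0.46, adjusted p = 0.000807), and the chromatin protein Hmgb2 at 344 to 1169 (median 705) against 149 to 242 (median 198) (log2 difference 2.00, SE 0.22, adjusted p = 0.000324). Both were higher in Xcr1 or Clec9a cells in all 6 samples with no overlap. Top2a, Pclaf and Ube2c were called in samples 5 and 8, where Pclaf had 96 UMIs against 0. Top2a (log2 difference 4.29) and Ube2c were not called by DESeq2. At 5000 UMIs per cell, 34.6% of the Xcr1 or Clec9a cells (interval 24.3 to 46.0%) had at least 2 of 15 cell cycle genes detected, against 4.44% of Cd209a cells (0.543 to 15.1%). Cells were pooled over hashtag samples here. The intervals therefore cover counting error only, not the spread between samples, and the difference in these shares was not tested. The values were 34.7% and 6.45% among cells with fewer than 3 macrophage genes, and 16.2% in macrophages and 13.7% in mature dendritic cells, from which 39 and 5 shallower cells were left out. The unthinned shares of the 4 classes were 61.7%, 35.6%, 47.7% and 50.8%.

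Other genes with large differences in samples 5 and 8 included genes of other cell types. The kallikrein Klk1, one of the plasmacytoid list, had 142 UMIs in Xcr1 or Clec9a cells and 0 in Cd209a cells, at least 20.2-fold higher against a floor of 3 counts over the Cd209a cells. All of it lay in Clec9a-only cells, at 285 CPM against 0 in Xcr1-positive cells. The immunoglobulin light chain Igkc (log2 difference 5.20) was not called by DESeq2. The B cell list was detected in 4 of 5 genes in Xcr1 or Clec9a cells, with Cd79a at 13.2 CPM. The lectin Cd209d had 0 UMIs in Xcr1 or Clec9a cells and 32 in Cd209a cells, at least 24.9-fold lower than in Cd209a cells against the same floor. Cd209d is a paralog of the choosing gene Cd209a, and the handling of reads shared between them is not known here. Ccl7, Timp1, Cst7 and Id3 were lower in Xcr1 or Clec9a cells, with log2 differences from -3.63 to -2.56, and Plet1 was higher (3.63).

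On the protein side, 7 of 32 tags (21.9%) were higher in Xcr1 or Clec9a cells in the 6 samples and 0 were lower, with 2 tags lower at an unadjusted p under 0.05 by edgeR. As shares of all tags without TMM scaling, 7 were higher and 13 lower. An exact two-sided sign-flip test over the 6 samples, whose smallest possible p is 0.0312, called 0 tags after adjustment and had 9 at an unadjusted p under 0.05. In samples 5 and 8, 3 of 32 tags (9.38%) were higher and 1 (3.12%) lower. CD103 and XCR1 are the proteins of the choosing genes Itgae and Xcr1. CD103 stood at 6.83 to 85 (median 28) tag counts per cell in Xcr1 or Clec9a cells and 0.5 to 2 (median 1.48) in Cd209a cells (log2 difference 3.93, SE 0.36, adjusted p = 1.25e-05, with TMM scaling of the tag totals). These values are means over cells, and the median cell had 3 CD103 tags among Xcr1 or Clec9a cells, 1 among Cd209a cells, and 2 among all members, macrophages and mature cells. CD24, a sialoprotein high on type 1 cells, stood at 517 to 956 (median 668) and 58.4 to 257 (median 94.1) per cell (log2 difference 2.45, SE 0.28, adjusted p = 4.2e-05). CD103 and CD24 did not overlap between the types and were called under 14 of 15 alternative settings. XCR1 stood at 2 to 45.5 (median 9.85) and 1.4 to 5.17 (median 2.96) per cell (log2 difference 1.71, adjusted p = 0.00525). CD117 stood at 5.5 to 30.2 (median 19.6) and 1.75 to 12 (median 3.55) per cell (log2 difference 1.75, adjusted p = 0.0241). I-A-I-E stood at 619 to 2746 (median 2258) and 552 to 1845 (median 767) (log2 difference 0.90, adjusted p = 0.0248). XCR1, CD117 and I-A-I-E overlapped between the types and were called under 10, 9 and 7 of 15 alternatives.

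CD8a and CD4, both found on subsets of dendritic cells, depended on which Xcr1 or Clec9a cells were counted. CD8a stood at 2.25 to 18.5 (median 8.55) and 0.75 to 4.67 (median 2.66) per cell (log2 difference 1.38, adjusted p = 0.00491) and was not called with Xcr1-positive cells alone. CD4 stood at 3.17 to 34.3 (median 16.6) and 3 to 9.08 (median 3.79) per cell (log2 difference 1.39, adjusted p = 0.0248), and the difference was -0.45 with Xcr1-positive cells alone. Pooled over samples, CD4 averaged 4.81 per cell in Xcr1-positive cells, 36.1 in Clec9a-only cells and 5.47 in Cd209a cells. The medians over cells were closer, at 3, 7 and 4. CD11b (-0.54, adjusted p = 0.0611), CD172a (-0.31, adjusted p = 0.328) and CD11c (0.41, adjusted p = 0.174) were not called between the types. Both CD11b and CD64 tags moved with macrophage transcripts inside each type. CD11b averaged 449 per cell in Xcr1 or Clec9a cells with at least 3 macrophage genes and 84.7 in the others, and 589.5 and 135 in Cd209a cells. CD64 averaged 7.09 and 0.796 in the former and 6 and 0.806 in the latter. In the cells with fewer than 3 macrophage genes the types still stood apart, with Irf8 at 1552 and 216 CPM, CD103 at 29 and 1.13 tags and CD24 at 635 and 72.3.

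**Figure D3:**
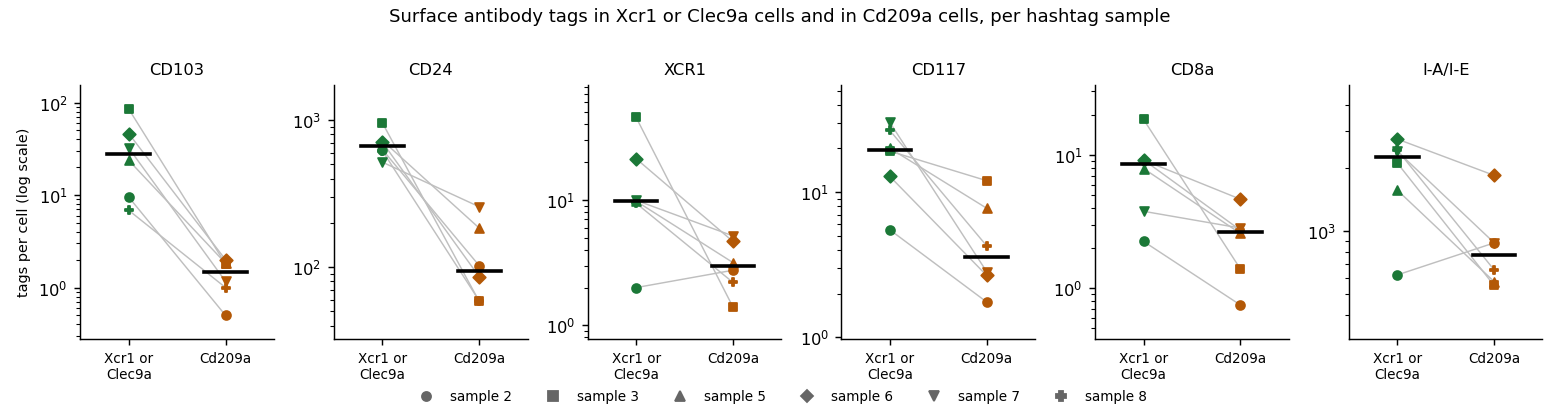
Antibody tag counts per cell for CD103, CD24, XCR1, CD117, CD8a and I-A/I-E in Xcr1 or Clec9a cells and Cd209a cells of 6 hashtag samples, on log axes. Each marker is a hashtag sample, grey lines join the same sample and black bars are medians; CD103 and CD24 do not overlap between the types, and the other 4 do.

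The second comparison set the 161 members against 769 class II macrophages, barcodes with the same H2-Aa minimum, none of the 6 dendritic genes and at least 3 of the 7 macrophage genes. In the 6 samples with at least 10 cells of both, 929 of 6540 genes (14.2%) were higher in the dendritic cells and 963 (14.7%) lower. The choosing genes of both classes were not counted, but genes that accompany them are not independent of that choice. Log2 differences are dendritic cells minus macrophages.

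Genes shared by conventional dendritic cells were higher in 8 of 12 tested members of a 14-gene list and lower in 0, with a median log2 difference of 1.39 beside -0.01 over all genes tested. Kit, the stem cell factor receptor, stood at 24.1 to 56.3 (median 42.5) CPM in dendritic cells and 0 to 3.16 (median 1.9) in macrophages (log2 difference 4.64, SE 0.33, adjusted p = 1.8e-07). Dpp4 (CD26) stood at 41.1 to 76.6 (median 67.7) and 3.41 to 15.8 (median 8.56) CPM (log2 difference 2.76, SE 0.23, adjusted p = 6.32e-07). Cbfa2t3, a transcriptional corepressor, stood at 127 to 200.4 (median 145) and 27.2 to 39.3 (median 30.5) CPM (log2 difference 2.33, SE 0.13, adjusted p = 1.79e-08). Levels of Kit, Dpp4 and Cbfa2t3 were higher in the dendritic cells of every sample and did not overlap. Bcl11a, Jaml, Sept3, Ciita and Cd83 were also higher, and Itgax (CD11c) was not called (-0.28, adjusted p = 0.093). Of the type 1 list 11 of 14 were higher and 0 lower, among them Irf8 at 612 to 1076 (median 756) and 220.4 to 468 (median 250) CPM (log2 difference 1.49, SE 0.14, adjusted p = 1.82e-06) and Tlr3 at 38.9 to 72.2 (median 43.2) and 11.4 to 16.3 (median 14.5) CPM (log2 difference 1.88). The inhibitory receptor Btla, also of that list, stood at 16.7 to 54.8 (median 39.1) and 0 to 2.88 (median 1.32) CPM (log2 difference 4.68). Cd24a stood at 131 to 175 (median 150.2) and 9.84 to 21.6 (median 15.4) CPM (log2 difference 3.33, SE 0.16, adjusted p = 8.16e-09). Irf8, Tlr3, Btla and Cd24a did not overlap between the classes.

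The type 2 list split: Clec10a (2.38), Cd7 (5.23) and the lymphotoxin gene Ltb (1.45) were higher in the dendritic cells, and 10 of 19, which included Sirpa (-1.36), Itgam (-1.28), Csf1r (-1.34) and Cx3cr1 (-1.19), were lower. Cd7 (chr11:121036747-121039478) stood at 78.2 to 178 (median 122) CPM in dendritic cells and 0 to 8.33 (median 3.66) in macrophages, without overlap. Among the largest other differences by size, Cd209d, Pclaf, Klrd1, P2ry10 and Net1 were higher, with Klrd1 at 179 to 346 (median 239) and 10.5 to 34.8 (median 22.7) CPM. Cell cycle genes were higher in 7 of 8 tested members and lower in 0, with a median log2 difference of 1.60. They included Mki67 (2.25), Top2a (2.14) and the replication helicase subunit Mcm5 (1.42).

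Class II presentation genes were higher in the dendritic cells in 9 of 11 tested members and lower in 2. H2-Ab1 stood at 6304 to 8239 (median 7104) and 3239 to 6217 (median 4628) CPM (log2 difference 0.72, SE 0.09, adjusted p = 2.93e-05). H2-DMb1, a subunit of the peptide exchange factor H2-DM, stood at 825 to 985 (median 898) and 425 to 779 (median 489) CPM (log2 difference 0.82, SE 0.11, adjusted p = 4.37e-05). H2-Oa, a subunit of its inhibitor H2-DO, stood at 61.2 to 185 (median 107) and 9.08 to 36.4 (median 11.4) CPM (log2 difference 2.99, SE 0.18, adjusted p = 5.05e-08). H2-Ab1, H2-DMb1 and H2-Oa did not overlap between the classes, and the inhibitor subunits H2-Oa and H2-Ob (2.75) had larger log2 differences than H2-Ab1, H2-Eb1 (0.79) and the invariant chain Cd74 (0.58). The proteases that trim the invariant chain ran the other way. Ctss stood at 1733 to 2454 (median 1914) CPM against 3993 to 4878 (median 4515) (log2 difference -1.13, SE 0.06, adjusted p = 1.82e-08), without overlap, and Lgmn had a log2 difference of -1.51. Cst3, which inhibits such cysteine proteases, stood at 7662 to 14145 (median 11604) and 2519 to 3412 (median 2933) CPM (log2 difference 1.97, SE 0.09, adjusted p = 8.16e-09). Among class I genes 5 of 17 were higher and 3 lower. Those higher were Psmb8 (0.63), Psmb9 (0.91), Psme1 (0.56), Tap1 (0.30) and Tap2 (0.40), of which Tap1 was called under 3 and Tap2 under 7 of 16 alternatives. Those lower were the heavy chains H2-K1 (-0.54) and H2-D1 (-0.46) and B2m (-0.68).

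Lysosomal and lipid genes were lower in the dendritic cells in 16 of 17 tested members and higher in 0, with a median log2 difference of -1.45. Apoe, a lipid carrier that is also on the macrophage marker list, stood at 907 to 1657 (median 1416) CPM against 3258 to 11142 (median 5463) (log2 difference -2.03, SE 0.18, adjusted p = 9.61e-07). The protease Ctsd stood at 150.5 to 281 (median 251) against 856 to 1561 (median 1079) CPM (log2 difference -2.13, SE 0.15, adjusted p = 1.95e-07). Neither overlapped. Ctsb (-1.57), Lamp1 (-1.32), Cd63 (-1.98), Cd68 (-1.30) and the fatty acid binding protein Fabp5 (-2.08) were lower too. Ctsk, Lpl, Hmox1, Tmem171 and the lipid-sensing receptor Nr1h3 were among the 8 genes with the largest lower values by size, from -3.73 to -2.22.

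Inflammatory output was lower across several lists. Chemokines were lower in 12 of 14 tested members and higher in 0, cytokines in 10 of 13 and 0, and interferon-stimulated genes in 13 of 25 and 0. The neutrophil attractant Cxcl2 stood at 567 to 2461 (median 1432) CPM in dendritic cells and 3342 to 6217 (median 4490) in macrophages (log2 difference -1.84, SE 0.21, adjusted p = 9.27e-06), without overlap. Cxcl1 (-3.03), Ccl7 (-2.28), Ccl3 (-1.70), Ccl2 (-1.59) and Tnf (-1.97) had larger differences than Il1b (-0.62). Cxcl10 stood at 206 to 1806 (median 1064) against 1082 to 2214 (median 1563) CPM (log2 difference -0.70, adjusted p = 0.0154), overlapping, and Cxcl9 was not called (-0.24, adjusted p = 0.507). Pattern recognition receptors were lower in 12 of 17 and higher in 2, which were Tlr3 and Tmem173 (STING, 0.60). Of the molecules targeted by the study's antibodies, Vsir, which encodes VISTA, stood at 61.2 to 76.2 (median 69.5) CPM in dendritic cells and 141 to 185 (median 159) in macrophages (log2 difference -1.12, SE 0.12, adjusted p = 5.47e-06), lower in 6 of 6 samples without overlap. Cd274, which encodes PD-L1, stood at 34.6 to 124 (median 96.1) and 86.3 to 187 (median 156) CPM (log2 difference -0.72, SE 0.20, adjusted p = 0.0127), overlapping and not called without sample 5. Cd86 was not called (0.17, adjusted p = 0.526).

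Of 33 antibody tags, 6 (18.2%) were higher on the dendritic cells and 7 (21.2%) lower with TMM scaling of the tag totals. CD117, the protein of Kit, stood at 10.1 to 21.7 (median 14.6) counts per cell on dendritic cells and 3.62 to 4.73 (median 4.25) on macrophages (log2 difference 2.19, SE 0.17, adjusted p = 3.07e-05). CD103 stood at 3.94 to 38.5 (median 24.2) and 1.6 to 3.38 (median 2.84) per cell (log2 difference 3.38, SE 0.48, adjusted p = 0.00099), and CD24 at 358 to 509.6 (median 426) and 87.9 to 271 (median 111) (log2 difference 2.14, SE 0.20, adjusted p = 7.24e-05). None of these 3 tags overlapped. CD11c stood at 114 to 235 (median 176) and 77.5 to 153 (median 103) per cell (log2 difference 1.08), higher where the Itgax transcript was not called. XCR1 (1.34) and the integrin CD49d (0.82) were the other higher tags. CD11b stood at 216 to 334 (median 292) against 475 to 797 (median 551) per cell (log2 difference -0.66) and CD172a at 14 to 26.1 (median 21.8) against 32.1 to 117 (median 53.6) (-1.01), neither overlapping. F4-80, CD64, Ly6G, CD38 and CD169 had log2 differences of -0.72 to -0.46. I-A-I-E (0.65, adjusted p = 0.0728) and PD-L1 (-0.45, adjusted p = 0.0972) were not called. The exact sign-flip test called 0 of the 33 tags after adjustment, and 20 had an unadjusted p under 0.05.

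The third comparison set the same 161 cells against 122 mature dendritic cells, defined by at least 3 of the 5 maturation genes, of which 38 also met the threshold on dendritic genes. In the 6 samples with at least 5 cells of both, 525 of 3445 genes (15.2%) were higher in the cells that were not mature and 588 (17.1%) lower, with log2 differences given as not mature minus mature. The total fell to 701 without sample 5. Macrophage transcripts moved with this comparison: 70 of 122 mature cells held at least 3 of the 7 genes, against 57 of 161, and the 10-gene macrophage list summed to 2608 to 20277 CPM over 7 samples of mature cells. Neutrophil markers summed to 23.6 CPM in the members (16.9 to 42.1 over samples) and to 547 in mature cells (38.1 to 3787), and the Ly6G tag of sample 6 averaged 2.27 per member and 38.2 per mature cell. The part of the neutrophil transcripts in the differences was not tested. Without the cells holding at least 3 of the 7 macrophage genes, the differences of Sirpa, Itgam, Csf1r, Ms4a6c, Ctss, Cxcl2, Apoe, Ctsd and Cd68 changed sign.

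Maturation genes outside the gate were lower in 17 of 19 tested members and higher in 0, with a median log2 difference of -2.73 beside 0.02 over all genes. Since the gate excluded cells with maturation genes, this describes how far other genes of that program followed. The NF-kappa-B subunit Relb stood at 27.8 to 61.7 (median 43.8) CPM in the cells that were not mature and 289.7 to 459 (median 341) in mature cells (log2 difference -3.05, SE 0.18, adjusted p = 1.57e-07). Il4i1, an amino acid oxidase, stood at 0 to 16.7 (median 4.17) and 168 to 505 (median 363) CPM (log2 difference -6.39, SE 0.31, adjusted p = 3.57e-08). Tmem123 (-3.79), Samsn1 (-3.46), the checkpoint ligand Cd200 (-4.11) and Il15ra (-2.35) were lower too. Tnfrsf4 (OX40) had 1 UMI against 250 in the 6 samples. Relb, Il4i1 and Tnfrsf4 did not overlap between the classes.

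Of 12 tested costimulation and checkpoint genes, 6 were lower in the cells that were not mature and 2 higher, and of 12 tested chemokines 5 were lower and 0 higher. Among those 5 chemokines, Cxcl2 changed sign without the cells holding at least 3 macrophage genes. Cd274 stood at 34.6 to 124 (median 96.1) CPM against 198 to 387 (median 286) (log2 difference -1.76, SE 0.18, adjusted p = 1.37e-05), and Pdcd1lg2 (PD-L2) at 6.02 to 13.3 (median 9.41) against 38.1 to 90.5 (median 61.2) (log2 difference -2.61, SE 0.27, adjusted p = 1.53e-05). Neither overlapped. Cd80 (-1.40), Cd40 (-1.15, called under 11 of 16 alternatives) and Icam1 (-1.12) were lower, Cd86 was not called (-0.17, adjusted p = 0.619) and Vsir was not called (-0.51, adjusted p = 0.0682). The checkpoint receptor gene Havcr2 (TIM-3) was higher (0.88), as was Cd48 (0.56, called under 9 of 16 alternatives). Il12b, the shared subunit of interleukin-12 and interleukin-23, had 7 UMIs against 277 and stood at 0 to 5.62 (median 0) against 61 to 322 (median 108) CPM (log2 difference -5.39, SE 0.42, adjusted p = 1.82e-06). Ccl5, which attracts T cells, stood at 185 to 801 (median 252) against 3110.1 to 9188 (median 5528) CPM (log2 difference -4.13, SE 0.30, adjusted p = 9.59e-07). Il12b and Ccl5 did not overlap. Cxcl16 (-1.49), Ccl2 (-1.11) and Ccl7 (-1.99) were lower, while Cxcl9 (0.05, adjusted p = 0.824), Cxcl10 (0.05, adjusted p = 0.922) and Il1b (0.02, adjusted p = 0.944) were not called. Interferon-stimulated genes were lower in 10 of 24 tested members and higher in 0.

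**Figure D4:**
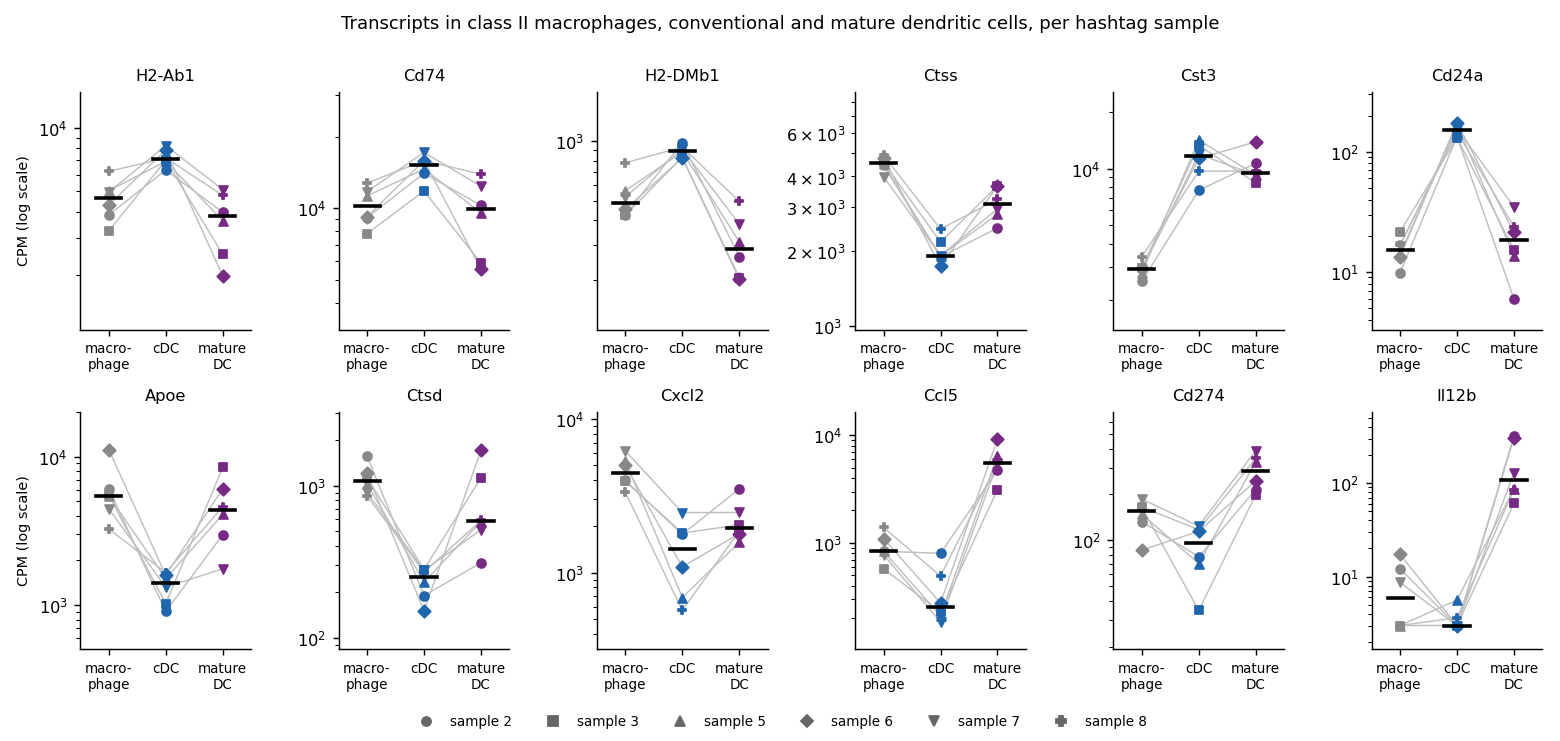
CPM of 12 genes in macrophages, conventional dendritic cells and mature dendritic cells of 6 hashtag samples, on log axes with values under 3 drawn at 3. Each marker is a hashtag sample, grey lines join the same sample and black bars are medians; H2-Ab1, H2-DMb1 and Cd24a have their highest median in the middle class, Apoe, Ctsd and Cxcl2 in macrophages, and Ccl5, Cd274 and Il12b in mature cells. Between the 2 dendritic classes, the differences of Apoe, Ctsd and Cxcl2 change sign without cells holding at least 3 macrophage genes.

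Genes of the type 1 program were higher in the cells that were not mature. Only these cells had to carry 2 of the 6 dendritic genes, among which Xcr1, Clec9a and Itgae mark type 1 cells. Clec9a was detected in 89 of 161 of them and in 12 of 122 mature cells. The type 1 genes here, and the CD103, XCR1 and CD24 tags below, are not independent of this choice. A change with maturation was not tested. Of the type 1 list 7 of 10 were higher and 0 lower, with Wdfy4 (2.71), Cd24a (2.90), Naaa (2.03) and Tlr3 (2.05) among them, while Irf8 (0.32, adjusted p = 0.162), Id2 (-0.38, adjusted p = 0.102) and Batf3 (0.19, adjusted p = 0.564) were not called. Of 18 tested members of the type 2 list 3 were higher, Cd7 (3.26), Clec10a (1.63) and Cd300a (1.01), and 10 lower, with a median log2 difference of -0.61. The lower members included Sirpa, Itgam, Csf1r and Ms4a6c, whose differences changed sign without the cells holding macrophage genes. Bcl11a (4.35), Gpr171 (2.52), Sept6 (2.40), the kynurenine enzyme Kmo (2.26) and the kinase Pak1 (2.08) completed the largest differences by size. Gpr171, a G protein-coupled receptor, stood at 184 to 373 (median 236) CPM against 0 to 67.6 (median 41.8), without overlap.

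Class II transcripts and class II protein ran in opposite directions. H2-Ab1 transcripts stood at 6304 to 8239 (median 7104) CPM in the cells that were not mature and 1976 to 5088 (median 3796) in mature cells (log2 difference 1.02, SE 0.16, adjusted p = 0.000484), and H2-DMb1 at 825 to 985 (median 898) and 202 to 498 (median 288) (log2 difference 1.52, SE 0.16, adjusted p = 1.59e-05). Of 10 tested class II genes 6 were higher in the cells that were not mature and 2, Ctss (-0.66) and Lgmn (-1.27), were lower. Without cells holding at least 3 macrophage genes, Ctss was 0.14 and Cd74 (0.67 in all cells) was not called. The I-A-I-E tag stood at 1209 to 2149.8 (median 1509.7) counts per cell in the cells that were not mature and 5641 to 8365 (median 7156) in mature cells (log2 difference -1.55, SE 0.12, adjusted p = 3.03e-06). The transcripts were higher in 6 of 6 samples and the tag lower in each, and neither overlapped between the classes. Class I heavy chains were lower in transcripts, with H2-K1 at 1517 to 2118 (median 1674) against 2561 to 3776 (median 3228) CPM (log2 difference -0.93), B2m at -0.90 and H2-D1 at -0.73.

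Other tags differed in both directions. Of 32 tags, 7 (21.9%) were higher in the cells that were not mature and 8 (25%) lower with TMM scaling of the tag totals. As shares of all tags without TMM scaling, 19 were higher and 5 lower. By the exact sign-flip test 18 were higher and 3 lower. The tag totals themselves differed, with medians of 3761 tags per cell in the cells that were not mature and 10100.5 in mature cells. Counts per cell were lower also for tags not called by edgeR with TMM scaling. CD49d, for example, did not overlap between the classes in counts per cell (log2 difference -0.006, adjusted p = 0.968). CD86 stood at 31 to 57.3 (median 45.2) counts per cell against 128 to 244 (median 168) (log2 difference -1.36, SE 0.18, adjusted p = 0.000119), although its transcript was not called. PD-L1 stood at 3.19 to 43.4 (median 24.2) against 20.9 to 151 (median 103) (log2 difference -1.50, SE 0.23, adjusted p = 0.000368), overlapping between samples. Its counts per cell were lower in 6 of 6 samples, and its share of all tags was lower in 5 of 6. CD83 stood at 0.455 to 1.6 (median 1.17) against 4.9 to 7 (median 5.62) (log2 difference -1.75) and CD25 at 1.18 to 4.18 (median 1.99) against 8.22 to 18 (median 12.4) (-1.88), neither overlapping in counts per cell. As shares of all tags, CD83 was lower in 6 of 6 samples and CD25 in 5 of 6. CD24 stood at 358 to 509.6 (median 426) per cell in the cells that were not mature and 89.7 to 334 (median 172) in mature cells (log2 difference 1.95), and CD103 at 3.94 to 38.5 (median 24.2) and 0.889 to 8.22 (median 4.13) (3.07). XCR1 stood at 2.91 to 19.7 (median 7.36) and 3 to 7.04 (median 5.42) (1.33). With TMM scaling, CD117 (0.93), CD11c (0.60), CD4 (1.20) and B220 (0.83) were also called higher and CD11b (-0.49), CD172a (-0.60) and PD-1 (-0.75) lower. As plain shares of tags, CD11b and CD172a were higher in the cells that were not mature in 4 of 6 samples, and PD-1 was lower in 4 of 6. CD11b was 0.09 without TMM scaling and 0.09 by the sign-flip test, and CD4 was -0.04 when 3 dendritic genes were required.

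**Figure D5:**
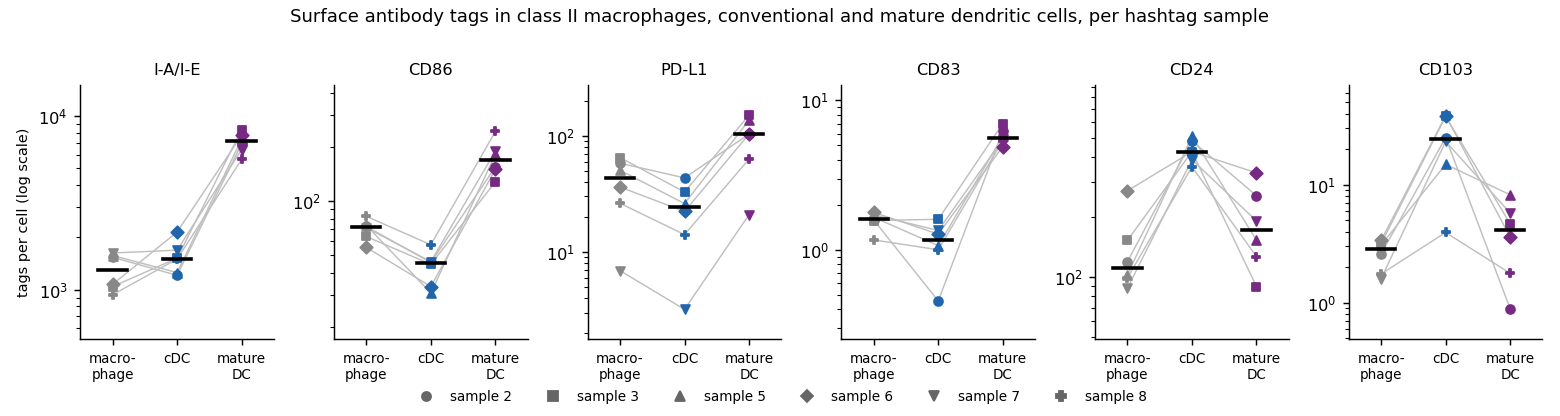
Antibody tag counts per cell for I-A/I-E, CD86, PD-L1, CD83, CD24 and CD103 in macrophages, conventional dendritic cells and mature dendritic cells of 6 hashtag samples, on log axes. Each marker is a hashtag sample, grey lines join the same sample and black bars are medians; I-A/I-E, CD86 and CD83 are higher in every mature sample than in any sample of conventional dendritic cells.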

How the data were processed

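The deposited matrix holds raw UMI counts of 31062 genes, 35 antibody tags and 8 M-HTO hashtags for 12908 barcodes, per the file headers. The submitters' processing notes name Cell Ranger 3.1, Seurat 3.1.1 and mm10, with no step tied to each. Its rows name genes (9 of them transgenes), tags or hashtags, none is a total, and 6 H-HTO rows were not used. Barcodes were chosen and typed as described above, and no doublet caller was run. The counts of each class were added up within a hashtag sample and tested with edgeR 4.0.16 in R 4.3.3 (TMM, filterByExpr for genes, no filter for tags, hashtag sample as block, Benjamini-Hochberg, threshold 0.05), with DESeq2 1.42.0 as an alternative. CPM are untransformed. The fits were tested on simulated data with an assumed spread. The fit of samples 5 and 8 recovered 3.30% of 2-fold and 49.0% of 4-fold differences. The 6-sample fit of the types recovered 63.3% and 99.0%. The macrophage fit recovered 36.4% and 95.9%, and the mature fit 55.3% and 100%. A gene that was not called can therefore still differ. Both classes of a sample come from the same tube, so the block follows from the design; deviations of paired classes had a correlation of 0.0924 in samples 5 and 8 and of -0.105 to 0.275 in the 6 samples of that comparison. Hashtag samples gave 166152 to 826843 gene UMIs in the members of the 6 samples tested. Named genes are those of the lists, plus the 8 in each direction with the largest difference among those called, changed the same way in every sample and at 50 CPM or more in the higher class; some are not reported here. Members and lists were chosen with earlier results of these data known. The 3-cell minimum, the restriction to Xcr1-positive cells, the removal of cells with plasmacytoid genes and, for macrophages and for tags against mature cells, of cells with macrophage genes were chosen after seeing the data. Intervals and floors cover counting error only.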

Additional observations from a re-analysis of the deposited data

Results flagged for a closer look

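In 7 of 86 sets of per-sample log2 differences examined, 1 hashtag sample lay apart from the others by Dixon's criterion at the 95% level, and chance alone gives some such sets. Between Xcr1 or Clec9a cells and Cd209a cells, sample 6 lay apart for Ppt1 at 5.52 and for Hmgb2 at 0.45, and sample 8 lay apart for the CD103 tag at 1.61. Sample 6 had 6 Xcr1 or Clec9a cells and 3 Cd209a cells. Between conventional dendritic cells and macrophages, sample 7 lay apart for the CD172a tag at -2.99 and sample 6 for the Ly6G tag at -2.79. Between conventional dendritic cells and mature dendritic cells, sample 7 lay apart for Il2ra at -2.38 and sample 2 for the CD11c tag at -0.30.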

How the results depend on the processing

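The comparison of Xcr1 or Clec9a cells with Cd209a cells depended most on the processing, and the cause was not tested. Its 66 genes in samples 5 and 8 became 112 without the replicate block, 26 with DESeq2, 240 without a filter on low counts, 171 without cells holding Krt8 or Krt18, 105 without cells holding plasmacytoid genes and 267 with Xcr1-positive cells alone. With a minimum of 3 cells it was 135, then 126 without the replicate block, 115 with DESeq2, 324 without a filter, 134 at a hashtag share of 90%, 118 without Krt8 or Krt18, 130 without plasmacytoid genes and 152 with Xcr1-positive cells alone. Leaving out each hashtag sample gave 65 (without sample 5) to 152 (without sample 6), with 67, 107, 108 and 113 without samples 8, 7, 2 and 3. Its 4 tags became 0 by the exact sign-flip test, which cannot give a p under 0.5 with 2 samples, 2 without plasmacytoid genes and 7 with a minimum of 3 cells. At that minimum the count was 7 without the block or at a hashtag share of 90%, 20 without TMM (7 higher, 13 lower), 0 by sign-flip (9 unadjusted), 10 at up to 20000 UMIs, 11 without plasmacytoid genes, 9 with Xcr1-positive cells alone and 2 (without sample 6 or 8) to 12 (without sample 3) with a sample left out.

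Against macrophages, 1892 genes were called in all and 1411 to 1892 with a sample left out, and the 13 tags became 0 by sign-flip (20 unadjusted), 7 with the minimum number of cells doubled and 11 to 16 with a sample left out. Against mature cells, 1113 genes became 1703 without a filter and 701 (without sample 5) to 1264 with a sample left out. The 15 tags became 24 without TMM (19 higher, 5 lower) and 9 (without sample 5) to 18 with a sample left out. The median share of members became 0.973% when 3 of the 6 dendritic genes were required. The median share of Xcr1 or Clec9a cells, 65.4%, became 90% under that rule, 72.7% without macrophage-gene cells and 61.5 to 69.2% with a sample left out. The block changed no other count by over 1.5 times.

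Directions reversed for Cxcl10 between the types (0.075 without sample 7) and, against mature cells without macrophage-gene cells, for Sirpa (0.58), Itgam (0.12), Csf1r (0.28), Ms4a6c (1.28), Ctss (0.14), Cxcl2 (2.22), Apoe (0.58), Ctsd (0.025) and Cd68 (1.64). The CD11b tag reversed to 0.086 without TMM and 0.085 by sign-flip, and the CD4 tag to -0.039 with 3 dendritic genes required. Named features kept their call under every alternative in 20 of 39 cases between the types in each version, 103 of 155 against macrophages and 64 of 115 against mature cells. In samples 5 and 8, settings that left 0 or 1 sample (3 of 6 genes, the doubled minimum, up to 20000 UMIs, no macrophage-gene cells, a sample left out) gave no fit, nor did 3 of 6 genes with a minimum of 3 cells. Depth limits the Cd209a cells most, at a median of 11116 UMIs and 3 to 15 cells per sample.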

Other observations

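The PD-L1 tag varied between hashtag samples in step across the 3 cell classes, which come from the same tubes. In samples 2, 3, 5, 6, 7 and 8 it averaged 43.4, 32.8, 26.0, 22.3, 3.19 and 14.1 counts per conventional dendritic cell. In the same order it averaged 58.1, 64.9, 50.5, 36.2, 6.88 and 26.2 per macrophage and 103, 151, 136, 104, 20.9 and 63 per mature dendritic cell. Sample 7 was the lowest of the 6 in each class. Such shared variation was not particular to PD-L1: the NK1.1 and CD169 tags were lowest in sample 8 in each class. In that sample NK1.1 averaged 9.84, 12.9 and 10.9 per cell in the same order of classes, and CD169 averaged 2.29, 2.97 and 2.56. No source used here gives the treatment of any hashtag, so these values were not compared between treatments.

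The 20 cells with both Clec9a and Cd209a carried Irf8 at 735 CPM, Id2 at 396, Cd7 at 272, Clec10a at 121 and the plasmacytoid transcription factor gene Tcf4 at 492. Their XCR1 tag averaged 2.6 counts per cell, near the 2.98 of Cd209a cells and the 4.13 of macrophages, against 17.6 on Xcr1-positive cells. They came from 7 hashtag samples, with at most 7 cells from 1 sample.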
